A study of Rattus norvegicus with 4 samples.

Results

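Liver was examined here through 43 marker genes of the immune cells that live in it, among them Kupffer cells and other macrophages, myeloid cells in general, T cells, B cells and cytotoxic lymphocytes. The genes were taken from a named list, and a gene counted as measured when a probe set carried its symbol and no other. On that basis 39 of the 43 were measured, among 14506 genes in all, and each of the 39 had 1 probe set. Msr1, Timd4, Itgax and Cd79a were not analysed here. The obese group was a pool of liver RNA from 4 male WNIN/Ob rats of the obese phenotype, 4 months old, and the lean group a pool from 4 male WNIN/Ob rats of the lean phenotype and the same age. WNIN/Ob is a rat strain in which obese and lean animals occur, both groups ate stock diet at will, and neither was treated. Each pool was hybridised to an array labelled original and an array labelled technical replicate, and the study compared baseline liver expression between the phenotypes. Each phenotype is therefore 1 pool, no test across animals exists, and every value below describes these pools only.

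Kupffer cells are the resident macrophages of the liver and line its sinusoids, where they take up particles, old red cells and bacterial products from portal blood through scavenger, lectin and complement receptors. Macrophages, monocytes and neutrophils form the myeloid lineage, whose gene programme rests on the transcription factor PU.1, made from Spi1. Its monocytes and macrophages also take growth signals through the receptor Csf1r. T cells carry the CD3 complex beside their antigen receptor, B cells carry the CD79 chains, and natural killer and cytotoxic T cells store perforin and granzymes. In obesity, lipid-laden macrophages that express Trem2 and Gpnmb are known from fat tissue and from fatty liver.

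Levels are log2 intensities, and every difference is the obese pool's mean minus the lean pool's mean on that scale. A gene was called lower (or higher) in the obese pool when the pool means were at least 1.2-fold apart and both obese arrays lay below (or above) both lean arrays. A gene was said to reach the level filter when its mean over the 4 arrays was at least 5.48, the median of all genes, since the files give no detection calls. All 8 measured Kupffer cell and macrophage markers reached that filter, as did 6 of 8 myeloid markers, Gpnmb of the 2 lipid-associated macrophage markers and all 5 markers of leukocytes in general. Of the 16 measured lymphocyte markers 1 reached it, Cd4, which in rats is carried by macrophages as well as by T cells. The list therefore reads mainly macrophages and leukocytes at large, and its lymphocyte part lies where signal is not shown to be above background.

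In the obese pool 5 of 18 macrophage and myeloid markers, 2 of 5 general leukocyte markers and 3 of 16 lymphocyte markers were called lower. Of the 39 markers 10 were called lower and 0 higher, where 9.40% of all genes were called lower and 13.9% higher (11.4% and 10.6% after cyclic loess normalisation, which called 18 markers lower). The differences ran from -0.49 for Tyrobp to 0.23 for Gpnmb. Their median was -0.21, beside 0.03 over all genes, and 32 of the 39 lay below 0, as did 43.1% of all genes. No marker met a larger rule, which asked for 1.5-fold, arrays at least 0.25 apart and a higher pool at the level filter. That rule called 2.43% of all genes lower and 2.19% higher. The count rests largely on the obese technical replicate array. Omitting it gave 6 of the 39 markers called lower, a share close to the 13.8% of all genes. Of the 10, 4 (Tyrobp, Coro1a, Cd8a and Prf1) were among them. Omitting the obese original array gave 22, where 12.5% of all genes were called lower, and these held all 10. The original arrays alone gave 7 of the 39, also close to the share of all genes, 16.3%. Tyrobp and Cd8a were the 2 of the 10 among them. Tyrobp and Prf1 were the 2 markers called lower with each of the 4 arrays left out in turn. In pooled tissue RNA, fewer cells of a type and less RNA per cell cannot be told apart.

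The 18 measured macrophage and myeloid markers had a median difference of -0.25, and 17 of them lay below 0, Gpnmb being the exception. The 5 general leukocyte markers had a median of -0.16 and all lay below 0. The 16 lymphocyte markers had a median of -0.07, with 10 below 0 and 6 above. Within them the median was -0.01 for the 10 T cell, -0.23 for the 2 B cell and -0.22 for the 4 cytotoxic markers. Among the 21 markers that reached the level filter the median was -0.25, beside 0.08 over the 7253 genes that reached it. Among the 18 dim markers it was -0.06, beside -0.0033 over the genes below the filter. Whether the classes differ from each other was not tested, since there is 1 pool of each phenotype.

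**Figure D1:**
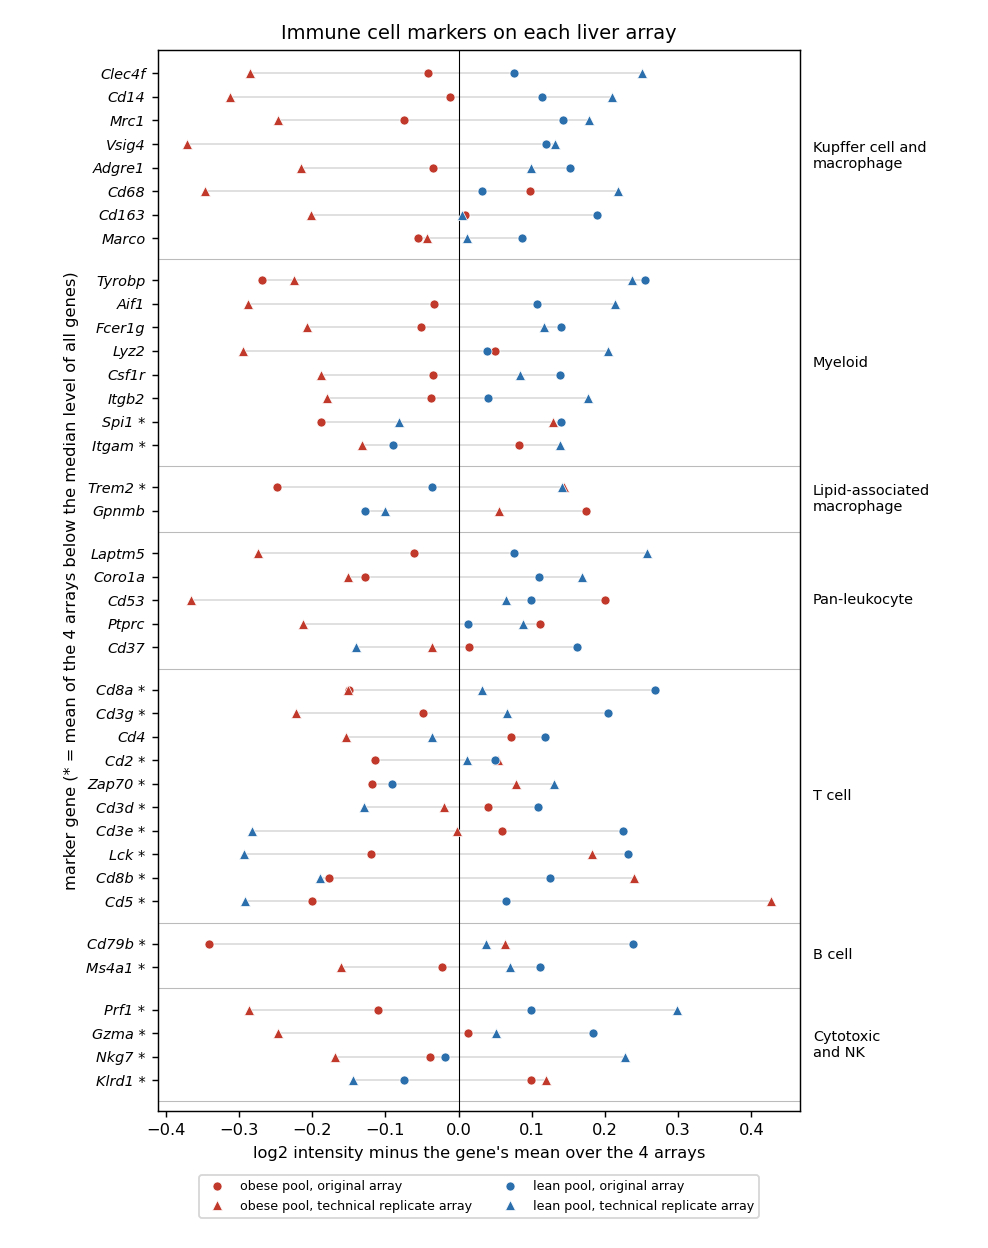
Each row is a marker gene, grouped by class, and each point an array: the log2 intensity minus that gene's mean over the 4 arrays, with obese arrays in red, lean arrays in blue, circles for original and triangles for technical replicate arrays. Among the 8 Kupffer cell and macrophage markers the obese technical replicate array is the lowest point in all but Marco. Stars mark dim markers. For all 10 T cell markers the obese original array lies below the lean original array. For 4 of the 10 the technical replicate arrays have the same order.

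**Figure D2:**
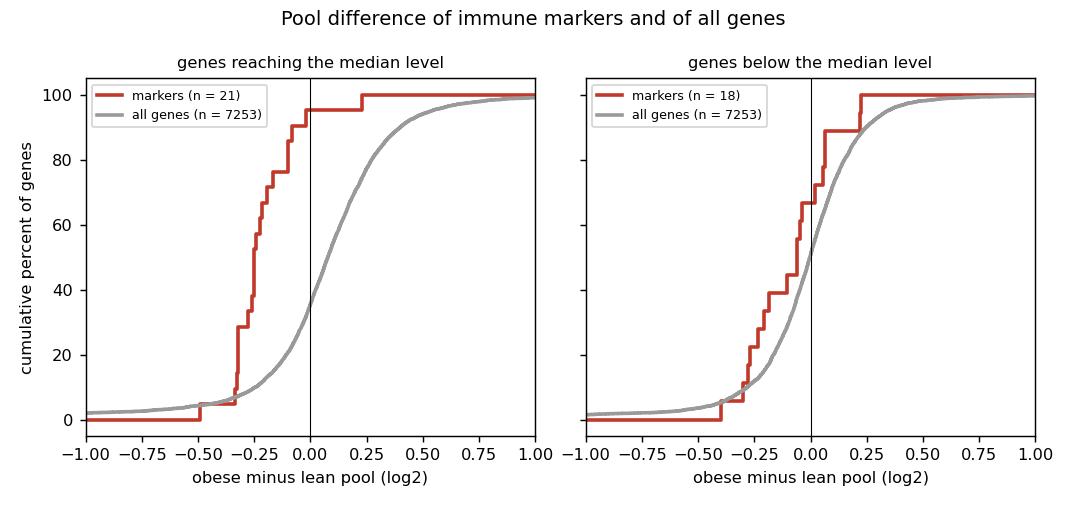
The horizontal axis is the obese minus lean difference (log2) and the vertical axis the cumulative percent of genes, for markers in red and all genes in grey, split by whether the mean of the 4 arrays reached the median level. The 21 markers that reached it lie to the left of the 7253 genes over most of the range, with medians of -0.25 and 0.08, while the 18 dim markers lie closer to the other dim genes.

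The arrays of the obese pool did not read these markers alike. The obese technical replicate array was below the obese original array for 28 of the 39 markers, and for 56.1% of all genes. Among genes that reached the level filter that share was 77.5%, and among markers that reached it 19 of 21. The median difference between the obese arrays, technical replicate minus original, was -0.21 over those 21 markers and -0.13 over the 7253 genes. That is about the size of the difference between the pools. In the lean pool the same quantity was 0.03 over the 21 markers and 0.02 over the genes, and the technical replicate array was the lower one for 22 of the 39 markers and 49.2% of all genes. The upper quartile of log2 intensity over all probe sets was 6.62 on the obese original array and between 6.50 and 6.52 on the other 3 arrays. The median over all markers kept its direction on both pairs of arrays. It was -0.15 between the original arrays and -0.27 between the technical replicate arrays, beside 0.03 over all genes on either pair. On the original arrays 31 of the 39 markers were lower in the obese pool, against 45.0% of all genes, and on the technical replicate arrays 27, against 44.3%. On both pairs 21 were lower, against 23.6% of all genes, and 2 were higher, Gpnmb and Klrd1.

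**Figure D3:**
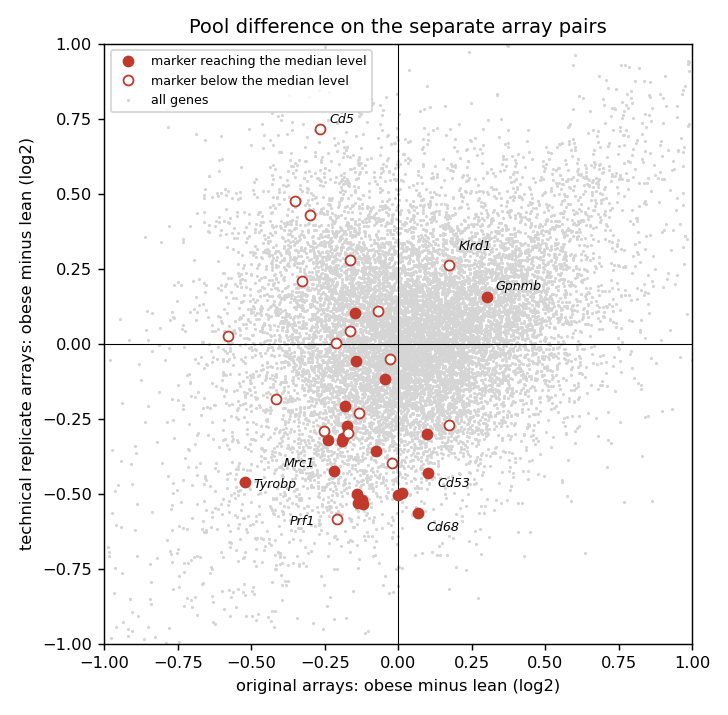
Each point is a gene, with the obese minus lean difference (log2) on the original arrays along the horizontal axis and on the technical replicate arrays along the vertical axis. Markers that reached the median level (filled red) gather at lower left with Tyrobp at -0.52 and -0.46, and all genes are grey. Of the 18 dim markers (open red) 16 lie below 0 on the original arrays and 8 on the technical replicate arrays. Genes with a difference beyond 1 in size on either pair lie outside the axes.

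The promoters shown are those of markers called lower that reached the level filter. They are shown because PU.1, the factor that Spi1 encodes, binds purine-rich sites with the core GAGGAA. The letters GAGGAA were searched on either strand in the 250 bases before each gene's start, in RefSeq promoter sequences of build GRCr8, which held 29 of the 39 markers. Of those 29 promoters 17 held it, or 58.6%, beside 23.4% of 11951 genes on the array. By class it was in 10 of 13 macrophage and myeloid promoters, 4 of 5 general leukocyte promoters and 3 of 11 lymphocyte promoters. The longer run GAGGAAGT, which contains GAGGAA, was in 3 of the 29 and in 2.21% of the 11951. By class the longer run was in 0 of 13 macrophage and myeloid promoters, 2 of 5 general leukocyte promoters and 1 of 11 lymphocyte promoters. A match describes letters and is not a binding site shown in this liver. Of the 7 markers that were called lower and reached the level filter, 5 had a promoter in the table. Capitals mark GAGGAA or, where it lies on the other strand, TTCCTC.
Mrc1 (chr17:82157475-82157724, plus strand): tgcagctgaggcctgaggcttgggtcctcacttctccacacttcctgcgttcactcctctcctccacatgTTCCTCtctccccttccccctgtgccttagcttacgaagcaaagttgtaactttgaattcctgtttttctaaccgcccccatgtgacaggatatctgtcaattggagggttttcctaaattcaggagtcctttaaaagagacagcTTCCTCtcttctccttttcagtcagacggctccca
Cd14 (chr18:28611159-28611408, minus strand): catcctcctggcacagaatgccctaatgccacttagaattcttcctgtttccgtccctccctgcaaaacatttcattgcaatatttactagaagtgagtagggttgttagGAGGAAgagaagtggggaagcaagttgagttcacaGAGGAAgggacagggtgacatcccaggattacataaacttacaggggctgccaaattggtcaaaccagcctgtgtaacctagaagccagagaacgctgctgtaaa
Laptm5 (chr5:148371630-148371879, plus strand): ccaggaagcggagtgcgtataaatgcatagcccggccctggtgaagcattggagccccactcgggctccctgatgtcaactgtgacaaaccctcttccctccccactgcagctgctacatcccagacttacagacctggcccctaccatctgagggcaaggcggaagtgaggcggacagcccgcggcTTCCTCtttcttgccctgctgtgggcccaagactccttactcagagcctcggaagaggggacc
Clec4f (chr4:117696408-117696657, minus strand): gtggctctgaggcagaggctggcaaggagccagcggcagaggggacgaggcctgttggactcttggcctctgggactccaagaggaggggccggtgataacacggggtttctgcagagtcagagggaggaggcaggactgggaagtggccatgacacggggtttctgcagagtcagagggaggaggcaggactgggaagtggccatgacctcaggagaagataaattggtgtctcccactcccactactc
Coro1a (chr1:190731104-190731353, minus strand): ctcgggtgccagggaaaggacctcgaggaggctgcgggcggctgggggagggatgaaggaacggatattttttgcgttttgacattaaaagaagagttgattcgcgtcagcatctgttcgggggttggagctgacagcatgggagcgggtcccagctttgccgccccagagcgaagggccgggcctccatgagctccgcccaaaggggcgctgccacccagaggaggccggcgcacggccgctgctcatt
Mrc1 and Cd14 each held 2 copies, 180 and 35 bases and 140 and 105 bases before the start, and Laptm5 held 1 copy, 63 bases before it. The windows of Clec4f and Coro1a held none, although both genes were called lower, as the next paragraphs show. Those of Cd3g, Cd8a and Prf1, dim markers that were called lower, held none either. Among markers not called, GAGGAA was present for some, such as Csf1r, Cd68 and Gpnmb, and absent for others, such as Cd163 and Vsig4. Whether a match goes with the calls was not tested. Spi1 itself stood at 5.09 and 5.41 in the obese pool and 5.42 and 5.19 in the lean pool, original array first here and in every pair of values below. Its arrays overlapped, its difference was -0.06 (-0.33 to 0.21 over the 4 pairs of an obese and a lean array), and it lay below the level filter.

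The lectin receptors Clec4f and Mrc1 were among the markers called lower, though not once the obese technical replicate array was omitted. Clec4f also lost its call without the lean technical replicate array. Clec4f, a galactose-binding lectin known from Kupffer cells, had 8.72 and 8.48 in the obese pool, against 8.84 and 9.02 in the lean pool. Both obese arrays were below both lean arrays, and the obese pool was 1.25-fold lower (1.09 to 1.45 over the array pairs). Mrc1, the mannose receptor, which sinusoidal endothelium also makes, had 8.63 and 8.46 in the obese pool, against 8.85 and 8.88 in the lean pool. It was 1.25-fold lower (1.16 to 1.34), again with no overlap. The scavenger receptor Marco had the smallest difference of the class, -0.10, and its arrays did not overlap. Cd163, which takes up haemoglobin bound to haptoglobin and is the ED2 antigen of rat macrophages, had a difference of -0.19 (-0.39 to 0.00), with the obese original array level with the lean technical replicate array.

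Of the receptors for microbial products and complement, Cd14 was called lower and Vsig4 was not. Cd14, the co-receptor for lipopolysaccharide, which hepatocytes can also make, had 10.20 and 9.90 in the obese pool, against 10.32 and 10.42 in the lean pool. Its arrays did not overlap and it was 1.25-fold lower (1.09 to 1.43), a call that was lost without the obese technical replicate array. Vsig4, the complement receptor of Kupffer cells, had 8.30 and 7.82 in the obese pool, against 8.30 and 8.32 in the lean pool, so that only the technical replicate array placed the obese pool below. Its difference was -0.25 (-0.50 to 0.00).

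The general macrophage markers Adgre1 and Cd68 were not called. Adgre1, the F4/80 antigen, had 6.68 and 6.50 in the obese pool, against 6.87 and 6.82 in the lean pool. These arrays did not overlap, but the difference of -0.25 fell short of 1.2-fold. Cd68, a lysosomal glycoprotein and the ED1 antigen of rat macrophages, had 8.22 and 7.78 in the obese pool, against 8.16 and 8.34 in the lean pool. Its arrays overlapped, the difference was -0.25 (-0.56 to 0.07), and the original arrays alone gave 0.07.

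Adaptor chains that link surface receptors to tyrosine kinases held the largest marker difference. Tyrobp, the adaptor DAP12 that serves Trem2 and several natural killer receptors, had 5.69 and 5.74 in the obese pool, against 6.22 and 6.20 in the lean pool. The obese arrays sat close together, well below the lean arrays, and the obese pool was 1.41-fold lower (1.38 to 1.44). Of all genes 3.96% had a lower difference. Fcer1g, the common gamma chain of Fc receptors, had 8.25 and 8.09 in the obese pool, against 8.44 and 8.42 in the lean pool, with no overlap. Its difference of -0.26 stayed just short of 1.2-fold.

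Cytoskeletal, enzyme and growth factor receptor markers of myeloid cells were also below 0. Aif1, the calcium-binding protein Iba1, had 6.32 and 6.06 in the obese pool, against 6.46 and 6.56 in the lean pool. It was called lower, at 1.25-fold (1.10 to 1.42), but not without the obese technical replicate array. Csf1r, the receptor on which macrophage survival depends, had 8.51 and 8.36 in the obese pool, against 8.68 and 8.63 in the lean pool. Its arrays did not overlap and the difference of -0.22 was too small to be called. Lyz2, lysozyme, had 7.39 and 7.05 in the obese pool, against 7.38 and 7.55 in the lean pool, with overlapping arrays and a difference of -0.24 (-0.50 to 0.01).

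The beta2 integrin chains went with the class or could not be read. Itgb2, the shared beta chain, had a difference of -0.22 (-0.36 to -0.08) and arrays that did not overlap. Itgam, the alpha chain that pairs with it into complement receptor 3, lay below the level filter in both pools and differed by -0.05 (-0.27 to 0.17). Itgam and Itgax, an alpha chain that was not analysed here, are neighbouring genes on chromosome 1 in the GRCr8 gene table.

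The markers of lipid-associated macrophages were not lower as a pair. Gpnmb, a lysosomal glycoprotein of lipid-laden macrophages, had 6.13 and 6.01 in the obese pool, against 5.83 and 5.85 in the lean pool. Both obese arrays were above both lean arrays, and it was 1.17-fold higher (1.11 to 1.23), which is short of 1.2-fold. It was the only marker at the level filter with a difference above 0. Trem2, a lipid-sensing receptor that signals through Tyrobp, had 3.95 and 4.35 in the obese pool, against 4.17 and 4.34 in the lean pool. Its arrays overlapped and it lay below the level filter, so its level in either pool is not shown to be above background.

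Of the markers shared by leukocytes of every lineage, Laptm5 and Coro1a were called lower. Laptm5, a lysosomal membrane protein, had 6.45 and 6.23 in the obese pool, against 6.58 and 6.76 in the lean pool, and was 1.26-fold lower (1.10 to 1.44), a call lost without the technical replicate array of either pool. Coro1a, a coronin that binds actin, had 6.09 and 6.07 in the obese pool, against 6.33 and 6.39 in the lean pool, and was 1.21-fold lower (1.18 to 1.25). Its call was lost without the lean technical replicate array, with median centring and with an offset of 16 on the linear scale. Each of these genes had obese arrays wholly below the lean arrays. Ptprc, the phosphatase CD45 that marks nearly all white cells, had 6.92 and 6.60 in the obese pool, against 6.82 and 6.90 in the lean pool. Cd53, a tetraspanin, had 6.86 and 6.29 in the obese pool, against 6.76 and 6.72 in the lean pool. For Ptprc and Cd53 the obese original array was the highest of the 4 and the obese technical replicate array the lowest, with differences of -0.10 (-0.30 to 0.10) and -0.16 (-0.46 to 0.13). Cd37, another tetraspanin, differed by -0.02 (-0.20 to 0.15). The class median of -0.16 was 0.00 when the obese technical replicate array was left out.

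The T cell markers gave no common direction in the difference of pool means, with 5 below 0 and 5 above. Cd3e, a chain of the CD3 complex, had 3.45 and 3.39 in the obese pool, against 3.61 and 3.11 in the lean pool, and the lean arrays enclosed the obese ones. Cd3d, which lies next to Cd3e and Cd3g on chromosome 8, differed by 0.02, while Cd3g was called lower, at 1.21-fold (1.08 to 1.34). The co-receptor chain Cd8a was also called lower, at 1.23-fold (1.13 to 1.34), and its neighbour on chromosome 4 and partner chain Cd8b differed by 0.06 (-0.30 to 0.43). Cd3g and Cd8a both lay below the level filter in both pools, so their folds have no firm size. Both calls were lost without the lean original array and with an offset of 16 on the linear scale. That of Cd8a was also lost on the technical replicate arrays alone. That of Cd3g was also lost without the obese technical replicate array and on the original arrays alone. Cyclic loess, quantile normalisation and median centring lost the Cd3g call too. Cd4, the only lymphocyte marker at the level filter, had 7.14 and 6.91 in the obese pool, against 7.18 and 7.03 in the lean pool. Its arrays overlapped and the difference was -0.08 (-0.27 to 0.11). Lck, the kinase that starts T cell receptor signalling, had 4.97 and 5.27 in the obese pool, against 5.32 and 4.79 in the lean pool, with overlap. The kinase Zap70 and the surface proteins Cd2 and Cd5 overlapped too, and Cd5 took opposite signs on the original (-0.27) and technical replicate arrays (0.72). All 10 T cell markers were lower in the obese pool on the original arrays, where the median was -0.21, and 4 of 10 on the technical replicate arrays, where it was 0.08. Among all genes below the level filter the shares were 61.1% on the original arrays and 40.7% on the technical replicate arrays.

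Markers of B cells and of cytotoxic cells were dim as well. Cd79b, a signalling chain of the B cell receptor, had 4.79 and 5.20 in the obese pool, against 5.37 and 5.17 in the lean pool, and its arrays overlapped. Ms4a1, the CD20 antigen, had 3.08 and 2.94 in the obese pool, against 3.21 and 3.17 in the lean pool, a difference of -0.18 with no overlap. Prf1, perforin, was the only cytotoxic marker called lower. It had 5.17 and 4.99 in the obese pool, against 5.38 and 5.58 in the lean pool, and was 1.32-fold lower (1.16 to 1.499), with the lean pool's mean just under the level filter. Nkg7, a granule membrane protein, had 4.57 and 4.44 in the obese pool, against 4.59 and 4.83 in the lean pool. The granzyme Gzma differed by -0.23 (-0.43 to -0.04) and the natural killer receptor chain Klrd1 by 0.22 (0.17 to 0.26). Arrays of the pools did not overlap for any of these 4 cytotoxic markers, 3 of which were lower and 1, Klrd1, higher in the obese pool. Over all 39 markers both obese arrays lay below both lean arrays for 18, or 46.2%, and above them for 2. The shares over all genes were 18.5% and 27.5%.

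Other genes of the same cells were read from lists that hold no marker. Of all genes 9.40% were called lower and 13.9% higher, the shares to set beside the counts below. Of 23 further Kupffer cell genes 5 were called lower and 2 higher, with a median of -0.07. Cd5l, a secreted scavenger protein of tissue macrophages, was lower by a factor of 1.33 (1.15 to 1.52) and the transcription factor Maf by one of 1.29 (1.20 to 1.38). C1qa, Axl and Clec10a were the other genes called lower, at -0.33, -0.33 and -0.32. Hmox1, which breaks down haem, was 2.40-fold higher (2.25 to 2.56) and the oxysterol receptor Nr1h3 1.43-fold (1.38 to 1.49). Hepatocytes express both of these genes. Of 31 further myeloid genes 6 were called lower and 3 higher, with a median of -0.11. The small GTPase Rac2 had 7.05 and 7.06 in the obese pool, against 7.44 and 7.43 in the lean pool, and was 1.30-fold lower (1.29 to 1.31). Arhgdib, which reached the level filter, was called lower at -0.30. The surface antigen Cd52, below the level filter, was called lower at -0.38, while the inhibitory receptor Sirpa was 1.25-fold higher (1.19 to 1.32). Of the other dim genes Ncf1, Plek and the chemokine receptor Ccr2 were called lower and the chemokine receptor Cx3cr1 higher. The kinase Lyn, which reached the level filter, was called higher at 0.27. Neutrophil genes, 11 in all and all below the level filter, had a median of 0.01, with Mmp8 and Mmp9 called lower and Elane and Ngp higher.

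Cd74, RT1-Bb and RT1-Ba, which serve antigen presentation, had larger differences than any of the 39 markers. Cd74, the invariant chain that escorts MHC class II molecules, had 8.69 and 8.64 in the obese pool, against 9.21 and 9.34 in the lean pool, and was 1.52-fold lower (1.43 to 1.62). The class II chain RT1-Bb had 6.72 and 6.85 in the obese pool, against 7.39 and 7.46 in the lean pool, and was 1.56-fold lower (1.46 to 1.68). RT1-Ba and RT1-Da differed by -0.54 and -0.33. All 4 listed class II chains and Cd74 were called lower. Of the 13 genes on that list these were the 5 called lower, Zbtb46 was the 1 called higher, and the median was -0.15. Of all genes 9.40% were called lower and 13.9% higher. Ciita, the coactivator that drives class II genes, lay below the level filter and differed by -0.02.

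Lymphocyte and plasma cell lists were dim, as the lymphocyte markers were. The counts called in them stand beside 9.40% of all genes called lower and 13.9% called higher. Of 25 further T and natural killer cell genes 5 were called lower and 0 higher, with a median of -0.09 and 2 genes at the level filter. The chemokine Ccl5 had 6.59 and 6.57 in the obese pool, against 6.99 and 6.97 in the lean pool, a difference of -0.40. Cd7 differed by -0.50, and the other genes called lower were Lat, Klrb1a and Klrk1. The granzyme Gzmb differed by -0.21 and was not called. Of 8 further B and plasma cell genes 2 were called lower, Jchain and the dim Fcrla, and 1 higher, Cd180. The median of this list was 0.10, with 3 genes below 0 and 5 above. Jchain, the joining chain of IgA and IgM made by plasma cells, had 6.04 and 5.40 in the obese pool, against 6.82 and 7.22 in the lean pool. It was 2.46-fold lower (1.72 to 3.53), with arrays that did not overlap but scattered within each pool. Cd22, a B cell receptor inhibitor, differed by 0.24. Of 8 further genes of lipid-associated macrophages, the tetraspanin Cd63 was 1.99-fold lower (1.85 to 2.14) and the dim fatty acid binding protein Fabp5 was called higher. Lgals3, galectin-3, differed by 0.17, Cd9 by -0.24 and the lysosomal protease Ctsd by -0.07. Genes of this list are not confined to macrophages.

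**Figure D4:**
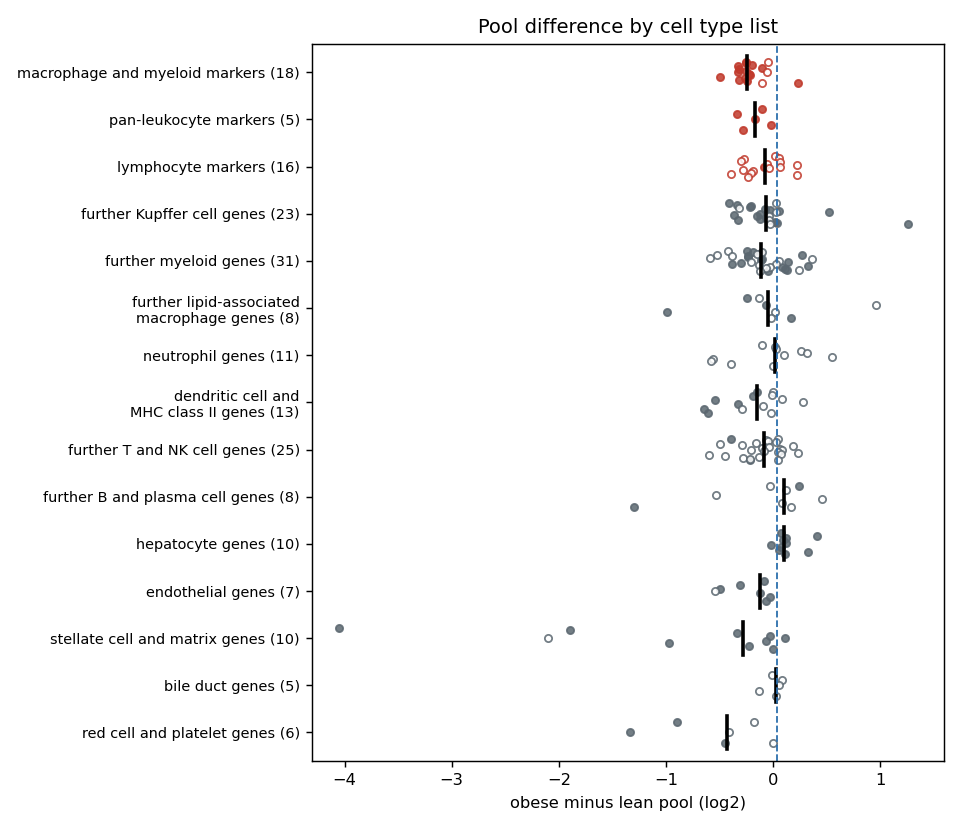
Each point is a gene and the horizontal axis its obese minus lean difference (log2), with filled points at or above the median level, open points below it, black bars at list medians, the blue dashed line at the median of all genes (0.03) and the number of measured genes in brackets. Markers are in red and other lists in grey. The macrophage and myeloid markers run from -0.49 to 0.23 with a median of -0.25, hepatocyte genes have a median of 0.10, and the red cell and stellate lists reach far lower. Skeletal muscle genes, with a median of -5.88, lie outside the axis.

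Genes of other tissues and of other liver cells were read in the same pools, where 9.40% of all genes were called lower and 13.9% higher. All 17 measured skeletal muscle genes were called lower in the obese pool, and their summed linear intensity was 576 and 606 on the obese arrays and 35820.5 and 37015 on the lean arrays. Acta1, muscle actin, had 6.89 and 6.87 in the obese pool, against 13.08 and 13.12 in the lean pool. Red cell and platelet genes were called lower in 4 of 6 cases (Hbb, Alas2, Slc4a1 and Pf4), with sums of 3393 and 3352 on the obese arrays and 6201 and 6468 on the lean arrays. Hbb, the beta chain of haemoglobin, had 11.57 and 11.56 in the obese pool, against 12.42 and 12.50 in the lean pool. Of 10 stellate cell and matrix genes 5 were called lower and 0 higher, namely Des at -4.05, Lum at -2.11, Dcn at -1.90, Col1a1 at -0.97 and Lrat at -0.34. Des, desmin, is a skeletal muscle gene as well. Endothelial genes had 3 of 7 called lower and 0 higher, Cd34 at -0.54, Kdr at -0.49 and Pecam1 at -0.31, and bile duct genes had 0 of 5 called, with a median of 0.03. Hepatocyte genes had 0 of 10 called lower and 2 higher, Apoa1 and Tat, and Alb, albumin, had 13.72 and 13.77 in the obese pool, against 13.61 and 13.72 in the lean pool. The sum over the 39 immune markers was 5327 and 4570 on the obese arrays and 5786 and 5920 on the lean arrays, a ratio of 0.846. The part of muscle, blood, matrix or endothelial RNA in the immune marker differences was not tested.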

How the data were processed

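The authors deposited linear intensities for each probe set and array, made with RMA, per the submitters' processing notes. They ran from 2.31 to 14288. The version, the step back to a linear scale and the genome build are not given in the sources used here. RMA compresses dim and very bright signals, which understates folds there. Labelling started from 100 ng of pooled RNA, per the labels' protocols.

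The log2 was taken here with no further normalisation. Gene names came from GEO's platform annotation. Of 29214 probe sets, 15310 had 1 symbol, 323 several and 13581 were not listed. For 527 genes with several probe sets the one with the highest mean was used, and no marker was among them. RefSeq's GRCr8 table matched all 43 markers and served for names and neighbours only, and promoter sequences with their coordinates came from RefSeq's promoter table of that build. Apart from the level filter, the choice of the brightest markers and probe sets, and the summed intensities, levels are not compared between genes.

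Levels of a pool were averaged over its 2 arrays, which are technical replicates, so no p-value was computed and the number of arrays limits the precision. Array pair ranges cover measurement error only. The 43 markers and the other lists were chosen with earlier results of these data known. Values by array were given for the 12 largest differences at the level filter, the 2 brightest markers of each class, and Spi1, Adgre1, Cd68, Ptprc and Cd3e. Up to 4 genes were named per other list, among those whose higher pool mean was at least 5.48. Ciita, Acta1, Alb, the genes listed to complete a short count and markers outside the rule were named after their values were seen. Only the 1.5-fold rule was checked on simulated data, in genes well above the median level and with changes larger than any marker's. The 1.2-fold rule, which gave the marker calls, was not checked in that way. Alternatives were each array left out, the original or technical replicate arrays alone, cyclic loess, quantile and median centring. Others were an offset of 16, the mean of probe sets and a level filter on the higher pool mean, which kept 7555 genes. Python 3.11.15, pandas 2.3.3, R 4.3.3 and limma 3.58.1 were used.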

Additional observations from a re-analysis of the deposited data

How the results depend on the processing

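The median over all measured markers stayed below 0 in all 12 alternatives and that of the macrophage and myeloid markers did too. The count called lower, 10, was 18 with cyclic loess, where 11.4% of all genes were called lower and 10.6% higher. It was 21 on the technical replicate arrays alone, where 14.2% of all genes were called lower. It was 15 with quantile normalisation and 8 with median centring, beside 9.82% and 8.42% of all genes. It was 7 on the original arrays alone (16.3% of all genes), with an offset of 16 (5.91%) and at the level filter (10.5% of the genes kept). It ran from 6 to 22 of the 39 markers when an array was left out. It was lowest without the obese technical replicate array, a share close to that of all genes (13.8%), and highest without the obese original array (12.5%). The count called higher, 0, was 1 on the original arrays alone, where 22.8% of all genes were called higher. It was 5 on the technical replicate arrays alone, where 19.0% of all genes were. With an array left out it ran from 0 to 3 (2 without the obese original array), beside 16.5% to 21.4% of all genes. The median over all markers, -0.21, was -0.15 on the original arrays alone, -0.27 on the technical replicate arrays alone, -0.24 with cyclic loess, -0.13 with an offset of 16, -0.25 over markers at the level filter, and between -0.29 and -0.14 with an array left out. For macrophage and myeloid markers, -0.25, it was -0.14 on the original arrays alone, -0.34 on the technical replicate arrays alone, -0.33 with cyclic loess, and between -0.34 and -0.15 with an array left out. The general leukocyte median, -0.16, was -0.32 for the technical replicate arrays and between -0.29 and 0.0041 with an array left out, above 0 when the obese technical replicate array was missing. The lymphocyte median ran between -0.18 and -0.04 with an array left out. The T cell median, -0.01, turned to 0.0762 on the technical replicate arrays alone, 0.0128 with quantile normalisation, 0.012 with median centring, 0.025 with the obese original array omitted and 0.0674 with the lean original array omitted. The lipid-associated pair's median, 0.06, turned to -0.0061 with the obese technical replicate array omitted. Counts by the 1.5-fold rule were 0 in all 12. The median of all genes, 0.03, moved by less than 0.1 in each. Of 25 markers given by array, 14 kept their sign in every alternative that measured them. The cause of these shifts was not tested. No paired analysis was possible because no result comes from a test, and the differences on each pair of arrays stand as values. With no detection calls, dim markers cannot be shown to lie above background.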
